A study of Mus musculus with 11 samples.

Results

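The genes described here are 34 genes of the integrated stress response and of amino acid supply, measured in messenger RNA of whole mouse pancreas at the start of caerulein pancreatitis. They were chosen by name, as the rows of the gene count table that carry 1 of 34 symbols. Of 54532 rows 35 matched, since Ddit3 has a second identifier that held 0 counts in every library, and all 34 genes were among the 14113 genes tested. The mice were C57BL/6JRj, an inbred strain with no engineered allele named in the labels, and each library came from its own mouse. Young mice were 7 weeks old and aged mice 18 months. Untreated controls (3 young, 2 aged, the aged numbered 2 and 3) had no treatment by the labels, which name no injection of vehicle. Treated mice (3 young, 3 aged) were given 4 hourly intraperitoneal injections of caerulein at 125 µg/kg, and their libraries are labelled 5H. Caerulein acts like cholecystokinin, the hormone that stimulates enzyme secretion by the pancreas, and doses above the secretory optimum injure the tissue.

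The integrated stress response is a pathway in which kinases that sense misfolded protein, missing amino acids and other stresses phosphorylate the initiation factor eIF2 on its alpha subunit. General translation then slows while the transcription factor ATF4 is made, and ATF4 with its C/EBP partners drives genes for amino acid synthesis, amino acid uptake, tRNA charging and feedback on the pathway itself. Acinar cells make more secreted protein than almost any other cell, and the kinase PERK (Eif2ak3) is known to be needed for the health of the exocrine pancreas.

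Total counts ran from 14223190 to 26537091 per library. Summed over 6 acinar markers (Cpa1, Cela1, Cel, Pnlip, Prss2, Ctrb1), the libraries held 373637 to 399520 CPM of the library total (CPM, counts scaled to a common library size) in untreated mice and 292286 to 324139 in treated mice. The library of young untreated mouse 2 stood apart: it was the highest of all 11 for 6 of 6 B cell and plasma cell markers, 6 of 6 T cell and NK cell markers and 5 of 5 adipocyte markers. Their sums in it were 170.7, 57.6 and 238 CPM, against at most 5.32, 1.01 and 11 in any other library. Jchain, Cd3e and Adipoq were each at 0 in at least 1 other library. In CPM scaled by TMM (a scaling that centres the typical gene), 31 of the 34 genes were lower in it than in both other young untreated libraries. That number depends on the scaling, since its TMM factor was 1.13 against 0.753 and 0.744 in young untreated mice 1 and 3. The same count over all genes is not given here. Results are also given without this library. The 34 genes together took 0.222% to 0.3% of all counts in untreated and 1.31% to 1.51% in treated libraries. Nupr1 held the most of these counts in every library, 12301 to 34409 in untreated and 91492 to 163601 in treated ones. The sum therefore weighs that gene above the others, and it is a share of library totals without TMM.

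The first comparison asked how the young pancreas differed after caerulein, and most of the stress response and supply genes were higher. Genes were called at an adjusted p below 0.05 (edgeR quasi-likelihood test, adjusted by Benjamini and Hochberg over all genes tested). Of the 34 genes 30 were called higher and 1, the mitochondrial folate enzyme gene Aldh1l2, was called lower. Of all genes tested 27.5% were called higher and 24.7% lower. The genes that did not pass were Eif2ak4, Ddit3 and Slc6a9. The median log2 fold change was 1.34 over the 34 genes and -0.06 over all genes tested. In 32 of the 34 genes the treated and untreated libraries did not overlap, against 57.3% of all genes. Without young untreated mouse 2, 29 were higher and 2 lower (Aldh1l2 and Slc6a9), where 30.8% and 26.8% of all genes were called.

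In aged mice the same genes were compared between caerulein and no treatment, and 28 of the 34 were higher and Aldh1l2 was again lower. Of all genes tested 27% were called higher and 21.2% lower. Eif2ak4, Ddit3, Phgdh, Pycr1 and Slc6a9 did not pass. The median log2 fold change was 1.49, against 0.07 over all genes, and libraries did not overlap in 32 of the 34 genes, against 71.2% of all genes. Without young untreated mouse 2 in the shared fit, 28 were higher and 3 lower (Aldh1l2, Eif2ak4 and Slc6a9), where 30.7% and 27.6% of all genes were called. The 28 genes higher in aged mice were all among the 30 higher in young mice, and 21 of them were more than 2-fold higher at both ages. The fold change was larger in aged mice in 14 of the 28. Scaled by library totals alone, which moved the median of all genes by 0.50 in young and 0.61 in aged mice (log2), 31 and 30 of the 34 were called higher and 1 lower at each age. Of all genes 37.7% and 38.6% were then called higher and 8.99% and 7.61% lower. Some other settings gave fewer. With DESeq2 size factors 29 in young and 25 in aged mice were called higher (26.1% and 25.5% of all genes). Scaling without the 50 most abundant genes gave 29 and 25 (26.8% and 25.2%), and a stricter filter 28 and 24 (33.8% and 33.9%). A minimum of 1.5-fold gave 26 and 21 (17.5% and 18.4%). DESeq2 and testing without a filter kept 30 and 28. Whole tissue was measured, so fewer cells of a type and less RNA per cell cannot be told apart. The summed acinar markers were lower in every treated library than in any untreated library (2 of the 6, Cpa1 and Cel, also singly), and 5 ductal markers summed to 39.2 to 69.6 CPM in untreated and 201 to 287 in treated libraries (2 of the 5, Krt19 and Spp1, also singly). The part of either in these changes was not tested.

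**Figure D1:**
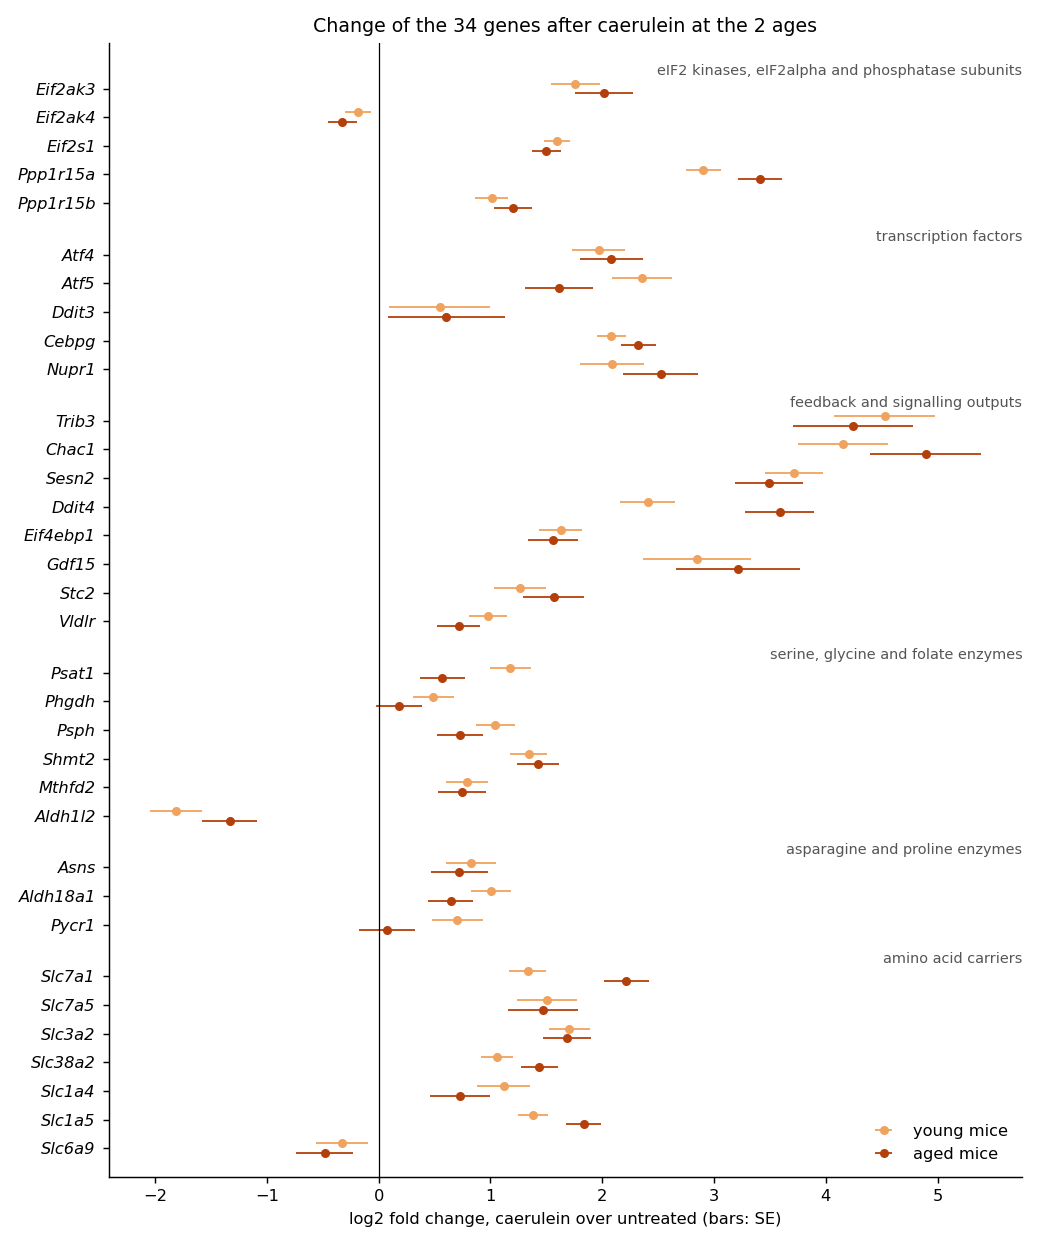
Log2 fold change of caerulein over untreated (horizontal axis) for each of the 34 genes, grouped by role, in young (light) and aged mice (dark), with points for the fitted value and bars for its SE. Trib3 and Chac1 lie farthest to the right at both ages, and Aldh1l2 lies farthest to the left at -1.81 and -1.33.

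ATF4 binds a composite element in the promoters of its targets, so the sequence before the start site is shown for genes that the results turn on. Promoter windows of 300 bases (250 before the RefSeq start site to 50 after, build GRCm38.p6, credited to RefSeq) matched 29 of the 34 genes. The C/EBP-ATF response element was searched as TGATGNAA on both strands and was found in 7 of the 29 genes (24.1%): Asns, Chac1, Nupr1, Pycr1, Slc1a4, Trib3 and Vldlr. Among the 27025 genes with a window 4.51% held it. The form TGATGCAA, a subset of those matches, was found in 5 of the 29 (17.2%) and in 1.03% of all genes. The cAMP response element TGACGTCA, which does not overlap the first motif here, was found in Ppp1r15a alone of the 29 (3.45%), against 2.03% of all genes. Capitals mark the match, which reads as its reverse complement (TTGCATCA or TTACATCA) where the element lies on the other strand.
Chac1 promoter, chr2:119351024-119351081, strand +: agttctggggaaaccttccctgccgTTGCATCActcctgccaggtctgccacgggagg
Trib3 promoter, chr2:152344039-152344071, strand -: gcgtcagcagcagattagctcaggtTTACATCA
Pycr1 promoter, chr11:120643819-120643876, strand -: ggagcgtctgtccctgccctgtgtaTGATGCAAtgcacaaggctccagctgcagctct
Asns promoter, chr6:7693214-7693243, strand -: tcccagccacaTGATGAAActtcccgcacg
Nupr1 promoter, chr7:126625562-126625591, strand -: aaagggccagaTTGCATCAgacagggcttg
Ppp1r15a promoter, chr7:45526269-45526305, strand -: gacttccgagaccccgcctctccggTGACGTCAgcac
The matches begin 193 bases before the RefSeq start site in Chac1, 103 in Pycr1, 110 in Nupr1, 23 in Asns and 12 in Ppp1r15a, and 15 bases into the RefSeq transcript in Trib3. The gene position used for the counts starts Trib3 at chr2:152344032 on strand -, so by that start its match lies before the gene. In Asns and Nupr1 the printed bases lie inside a GENCODE vM21 exon. The 7 genes with TGATGNAA had a median log2 fold change of 1.12 in young and 0.73 in aged mice, over a range from 0.71 to 4.53 and from 0.07 to 4.89. The other 22 genes with a window had medians of 1.34 and 1.53. A match describes letters in the window and was not tested as a binding site.

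Among the eIF2 kinases, eIF2alpha and its phosphatase subunits, 4 of 5 genes were higher after caerulein at both ages. Of all genes tested, 27.5% were called higher in young and 27% in aged mice, and 24.7% and 21.2% lower. The counts in each role group below are to be read beside these shares. Values by library are CPM scaled by TMM (a scaling that centres the typical gene), in the order of mouse numbers, and gene positions are those of mm10. Ppp1r15a encodes GADD34, the stress-induced subunit that brings a phosphatase to eIF2alpha (ENSMUSG00000040435, chr7:45522916-45526268). Ppp1r15a stood at 9.44, 9.51 and 12.3 CPM in young and at 8.32 and 10.2 CPM in aged untreated mice. After caerulein Ppp1r15a stood at 70.9, 90.3 and 72.8 CPM in young and at 106, 90.2 and 102 CPM in aged mice. Every treated library was more than 5-fold above every untreated one. Ppp1r15a had a log2 fold change of 2.91 ± 0.16 in young and 3.41 ± 0.19 in aged mice (SE, edgeR adjusted p = 1.42e-07 and 2.87e-07). Ppp1r15b, the constitutive subunit of the same phosphatase, changed by 1.01 ± 0.15 and 1.2 ± 0.17. Per gene length, the ratio of Ppp1r15a to Ppp1r15b FPKM within a library went from 0.266 ± 0.0296 (SD, n = 3) to 0.979 ± 0.0866 in young and from 0.21 ± 0.0326 (n = 2) to 0.982 ± 0.113 (n = 3) in aged mice, a measure that no library scaling can move.

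Eif2ak3 encodes PERK, the kinase that senses misfolded protein in the endoplasmic reticulum (ENSMUSG00000031668, chr6:70844515-70905245). Eif2ak3 stood at 73.5, 50.04 and 74.2 CPM in young and at 64.0 and 67.1 CPM in aged untreated mice. After caerulein Eif2ak3 stood at 253, 225 and 190.5 CPM in young and at 315, 295 and 187 CPM in aged mice. The treated libraries were all above the untreated ones, and aged mouse 3 was the lowest of the treated. Eif2ak3 had a log2 fold change of 1.76 ± 0.22 in young and 2.02 ± 0.26 in aged mice (edgeR adjusted p = 5.69e-05 and 7.55e-05). Eif2s1, which encodes eIF2alpha itself, was higher by 1.60 ± 0.12 and 1.5 ± 0.13. Eif2ak4 encodes GCN2, the kinase that senses uncharged tRNA. Eif2ak4 stood at 9.44, 8.55 and 9.03 CPM in young and at 10.8 and 11.4 CPM in aged untreated mice. After caerulein Eif2ak4 stood at 7.89, 7.43 and 8.42 CPM in young and at 9.51, 8.58 and 8.55 CPM in aged mice. The treated libraries lay just below the untreated ones of the same age. For Eif2ak4 the log2 fold change of -0.19 ± 0.12 in young and -0.33 ± 0.13 in aged mice did not pass (edgeR adjusted p = 0.193 and 0.0563). Its direction rests on the scaling, since with library totals it was 0.32 and 0.29. It was called lower in aged mice without young untreated mouse 2 (-0.39, edgeR adjusted p = 0.0165), and higher in young mice with library totals and without that mouse (0.50, edgeR adjusted p = 0.00967). With the stricter filter Eif2ak4 was called lower in young (-0.40, edgeR adjusted p = 0.00896) and aged mice (-0.55, adjusted p = 0.00265). DESeq2 size factors, scaling without the 50 abundant genes and only the groups compared also called it lower in aged mice (edgeR adjusted p = 0.0307, 0.029 and 0.0195).

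Of the 5 transcription factors, 4 were higher at both ages and Ddit3 did not pass. Atf4 encodes the central activator of the pathway, which is itself controlled mainly through translation (ENSMUSG00000042406, chr15:80255184-80257541). Atf4 stood at 126, 64.5 and 144 CPM in young and at 116 and 124 CPM in aged untreated mice. After caerulein Atf4 stood at 399, 458 and 449.9 CPM in young and at 526, 509 and 485 CPM in aged mice. Young untreated mouse 2 was the lowest library and no treated library came near the untreated ones. Atf4 had a log2 fold change of 1.97 ± 0.24 in young and 2.08 ± 0.28 in aged mice (edgeR adjusted p = 4.99e-05 and 0.000116).

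Ddit3 encodes CHOP, the factor tied to cell death in prolonged stress (ENSMUSG00000025408, chr10:127290774-127296288). Ddit3 stood at 13.7, 3.12 and 6.96 CPM in young and at 6.55 and 6.88 CPM in aged untreated mice. After caerulein Ddit3 stood at 12.2, 11.5 and 10.7 CPM in young and at 15.3, 5.41 and 9.88 CPM in aged mice. The groups overlapped at both ages, with young untreated mouse 1 above all 3 young treated libraries and aged treated mouse 2 below both aged untreated libraries. For Ddit3 the log2 fold change of 0.54 ± 0.45 in young and 0.60 ± 0.52 in aged mice did not pass (edgeR adjusted p = 0.331 and 0.371). The 95% intervals ran from -0.34 to 1.43 and from -0.42 to 1.63. Single mice moved both values: the young value was 1.2 without young untreated mouse 1 (edgeR adjusted p = 0.0321) and 0.10 without young untreated mouse 2 (adjusted p = 0.815). The aged value was 0.18 without aged caerulein mouse 1 and 0.91 without aged caerulein mouse 2 (edgeR adjusted p = 0.819 and 0.186). The young value also passed when libraries were scaled by their totals (1.16, edgeR adjusted p = 0.0332). Within libraries the FPKM ratio of Atf4 to Ddit3 went from 12.2 ± 4.81 to 27.7 ± 3.61 in young and from 12.9 ± 0.148 to 43.0 ± 22.6 in aged mice (SD over 3, 3, 2 and 3 libraries).

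Nupr1 encodes a small chromatin protein known for its induction in acute pancreatitis (ENSMUSG00000030717, chr7:126623249-126630861). Nupr1 stood at 1934, 744 and 1361 CPM in young and at 1034 and 968 CPM in aged untreated mice. After caerulein Nupr1 stood at 5369, 5784 and 6025 CPM in young and at 6246, 5917 and 5078 CPM in aged mice. The 2 ages overlapped within each treatment and the treatments did not overlap. Nupr1 had a log2 fold change of 2.09 ± 0.28 in young and 2.52 ± 0.34 in aged mice (edgeR adjusted p = 0.000104 and 0.000104). Cebpg encodes a C/EBP protein that pairs with ATF4 (ENSMUSG00000056216, chr7:35046422-35056573). Cebpg stood at 23.8, 20.3 and 25.2 CPM in young and at 26.0 and 23.7 CPM in aged untreated mice. After caerulein Cebpg stood at 87.8, 106 and 99.0 CPM in young and at 136, 116 and 122 CPM in aged mice. The untreated libraries lay close together and all aged treated libraries were above the young treated ones. Cebpg had a log2 fold change of 2.08 ± 0.13 and 2.32 ± 0.15 (edgeR adjusted p = 3.39e-07 and 7.76e-07). Atf5, a relative of Atf4 that is controlled the same way, was higher by 2.36 ± 0.27 in young and 1.61 ± 0.31 in aged mice, and this difference between ages did not pass (difference -0.75 ± 0.39, edgeR adjusted p = 0.452).

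The feedback and signalling outputs were higher in 8 of 8 genes at both ages, against 27.5% of all genes in young and 27% in aged mice. They held the largest changes, with a median log2 fold change of 2.63 in young and 3.35 in aged mice. Trib3 encodes a pseudokinase that binds ATF4 and restrains it (ENSMUSG00000032715, chr2:152337422-152344032). Trib3 stood at 14.2, 3.00 and 5.81 CPM in young and at 7.65 and 7.47 CPM in aged untreated mice. After caerulein Trib3 stood at 157, 189 and 181 CPM in young and at 155, 111 and 163 CPM in aged mice. The lowest treated library was above the highest untreated library by a wide margin, and young untreated mouse 1 was the highest of the untreated. Trib3 had a log2 fold change of 4.53 ± 0.45 in young (23.1-fold) and 4.24 ± 0.54 in aged mice (18.9-fold, edgeR adjusted p = 1.06e-05 and 7.06e-05).

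Chac1 encodes an enzyme that breaks down glutathione (ENSMUSG00000027313, chr2:119351229-119354381). Chac1 stood at 56.7, 18.1 and 60.5 CPM in young and at 51.9 and 49.1 CPM in aged untreated mice. After caerulein Chac1 stood at 708, 862 and 835 CPM in young and at 1815, 1153 and 1536 CPM in aged mice. All 3 aged treated libraries were above all 3 young treated libraries. Chac1 had a log2 fold change of 4.15 ± 0.40 in young (17.8-fold) and 4.89 ± 0.49 in aged mice (29.7-fold, edgeR adjusted p = 7.82e-06 and 1.36e-05). Sesn2 and Ddit4, both of which restrain the growth kinase mTORC1, were higher by 3.71 ± 0.26 and 3.49 ± 0.31 (Sesn2) and by 2.41 ± 0.25 and 3.59 ± 0.31 (Ddit4). Gdf15, a secreted stress hormone, was the member with the fewest reads, with 7 to 41 counts in untreated and 112 to 427 in treated libraries, and was higher by 2.85 ± 0.48 and 3.22 ± 0.55. Eif4ebp1 (a brake on cap-dependent translation), Stc2 (a secreted glycoprotein) and Vldlr (a lipoprotein receptor) were higher by 0.98 to 1.63 in young and by 0.71 to 1.57 in aged mice. Vldlr in aged mice did not pass without aged untreated mouse 2 (0.67, edgeR adjusted p = 0.0877).

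**Figure D2:**
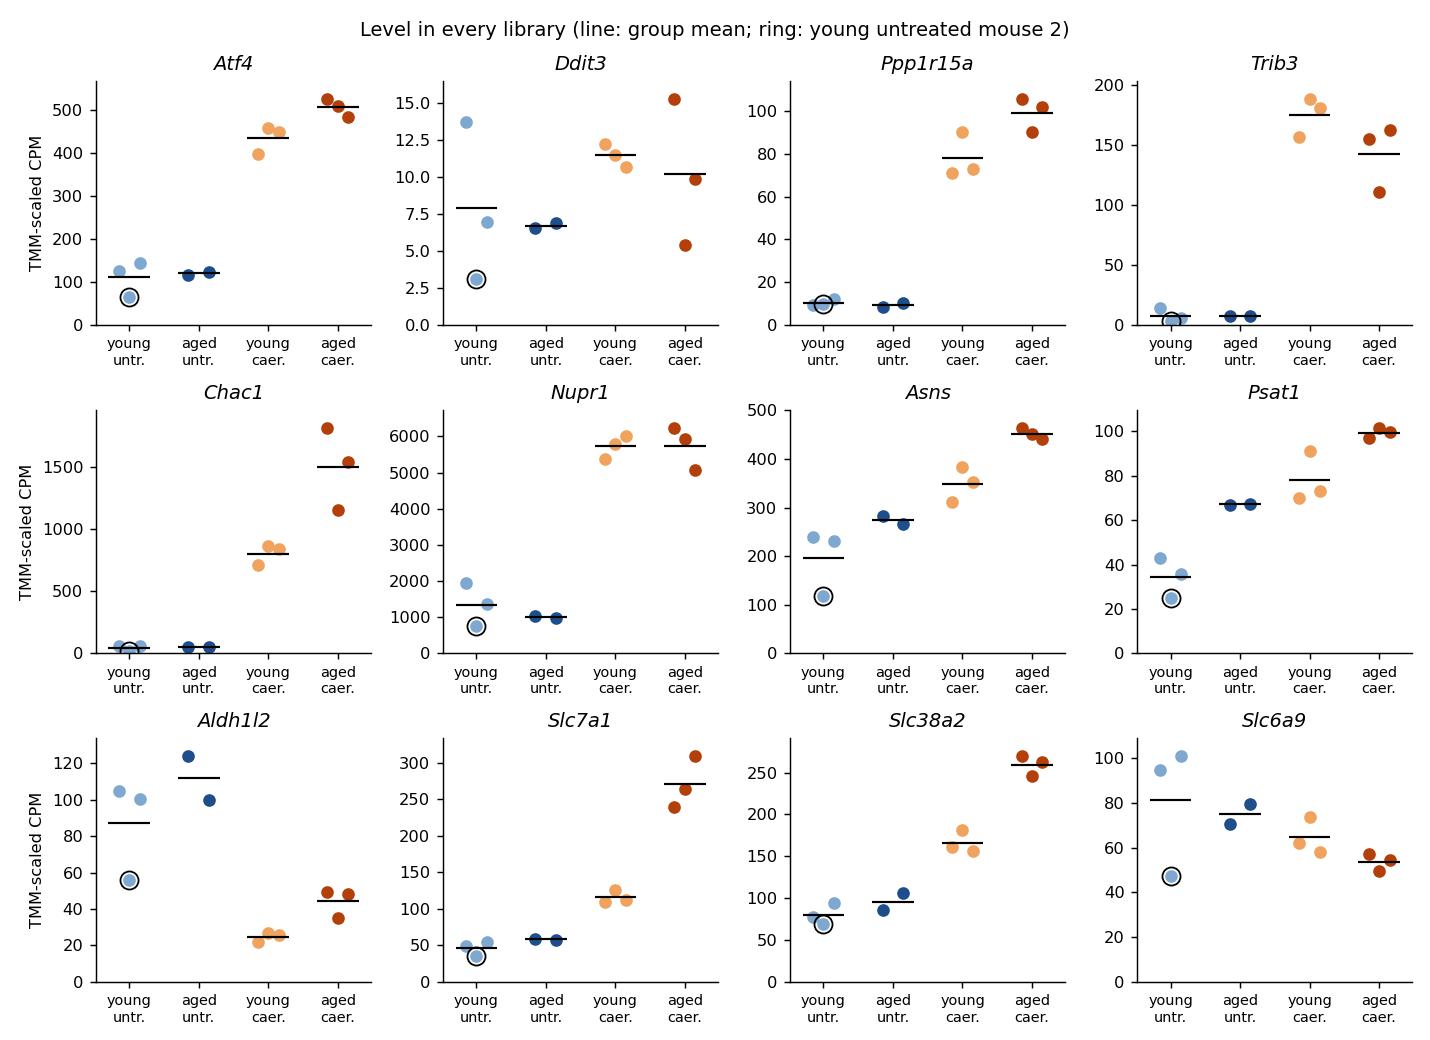
TMM-scaled CPM (vertical axis, from 0) of 12 of the genes in each library, with a dot for each mouse, a line for the group mean and a ring around young untreated mouse 2. Chac1 reaches 1153 to 1815 CPM in aged treated mice against 708 to 862 in young treated mice, Ddit3 overlaps between treated and untreated mice, and Aldh1l2 is lower in the 6 treated libraries.

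Of the 6 serine, glycine and folate enzymes, 5 were higher and 1 lower in young mice, and 4 were higher and 1 lower in aged mice. Shmt2 encodes the mitochondrial enzyme that splits serine into glycine and a one-carbon unit (ENSMUSG00000025403, chr10:127517123-127522444). Shmt2 stood at 46.7, 28.2 and 40.2 CPM in young and at 41.6 and 47.1 CPM in aged untreated mice. After caerulein Shmt2 stood at 94.7, 100.3 and 96.3 CPM in young and at 123, 113 and 122 CPM in aged mice. Treated and untreated libraries were well apart at both ages. Shmt2 had a log2 fold change of 1.34 ± 0.16 in young and 1.43 ± 0.19 in aged mice (edgeR adjusted p = 4.75e-05 and 9.58e-05). Aldh1l2 encodes the mitochondrial enzyme that oxidises formyl-tetrahydrofolate to carbon dioxide (ENSMUSG00000020256, chr10:83487450-83534140). Aldh1l2 stood at 105, 55.7 and 100.4 CPM in young and at 124 and 99.7 CPM in aged untreated mice. After caerulein Aldh1l2 stood at 21.9, 26.8 and 25.7 CPM in young and at 49.6, 35.3 and 48.2 CPM in aged mice. Every treated library was below every untreated one, and the young treated libraries were the lowest. Aldh1l2 had a log2 fold change of -1.81 ± 0.23 in young and -1.33 ± 0.25 in aged mice (edgeR adjusted p = 7.48e-05 and 0.00108), and it was called lower under each alternative run, library totals included. Mthfd2, which acts on the same mitochondrial folates, was higher by 0.79 ± 0.19 and 0.75 ± 0.22, and by 0.51 ± 0.10 in young mice without young untreated mouse 2. The FPKM ratio of Mthfd2 to Aldh1l2 went from 1.56 ± 0.0616 to 9.47 ± 0.765 in young and from 1.59 ± 0.376 to 6.77 ± 1.25 in aged mice.

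Phgdh encodes the first enzyme of serine synthesis (ENSMUSG00000053398, chr3:98313170-98339990). Phgdh stood at 165, 103 and 176 CPM in young and at 216 and 202 CPM in aged untreated mice. After caerulein Phgdh stood at 185, 229 and 208 CPM in young and at 230.5, 228 and 253 CPM in aged mice. The highest untreated aged library lay just below the lowest treated aged one, and young untreated mouse 2 was far below the other libraries. Phgdh was called in young mice (0.49 ± 0.18, edgeR adjusted p = 0.0438) and not in aged mice (0.18 ± 0.21, adjusted p = 0.496), and the difference did not pass (-0.30 ± 0.27, adjusted p = 0.674). The lack of a call in aged mice depends on the scaling, since with library totals Phgdh was called higher there (0.80, edgeR adjusted p = 0.00195). The young call depends on the scaling too, and was lost with DESeq2 size factors and without the 50 abundant genes (edgeR adjusted p = 0.0738 and 0.0725). With only the groups compared and with the stricter filter it was also lost (edgeR adjusted p = 0.112 and 0.153). The young call was lost without young untreated mouse 2 (0.23, edgeR adjusted p = 0.0907). Leaving out young caerulein mouse 2 or 3, aged untreated mouse 2 or 3, or any of the 3 aged caerulein mice also ended it, at edgeR adjusted p between 0.055 and 0.136. Psat1 and Psph, the next enzymes of the serine pathway, were higher by 1.18 ± 0.18 and 1.05 ± 0.18 in young and by 0.57 ± 0.20 and 0.73 ± 0.20 in aged mice. With all libraries, the aged Psat1 call was lost with DESeq2 size factors (edgeR adjusted p = 0.0594). It was also lost without the 50 abundant genes in the scaling and with the stricter filter (edgeR adjusted p = 0.0743 and 0.119). In aged mice Psph did not pass without aged untreated mouse 2 (edgeR adjusted p = 0.103), Mthfd2 without aged untreated mouse 2 or 3 (adjusted p = 0.119 and 0.0594), and Psat1 without young caerulein mouse 3, either aged untreated mouse or any aged caerulein mouse (adjusted p between 0.0503 and 0.161).

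Of the 3 asparagine and proline enzymes, 3 were higher in young and 2 in aged mice. Their median log2 fold change was 0.83 in young and 0.64 in aged mice. Asns encodes asparagine synthetase, which makes asparagine from aspartate and glutamine (ENSMUSG00000029752, chr6:7675169-7693254). Asns stood at 239, 118 and 231 CPM in young and at 282 and 266 CPM in aged untreated mice. After caerulein Asns stood at 310.5, 383 and 352 CPM in young and at 465, 451 and 441 CPM in aged mice. The treated libraries were above the untreated ones at each age, and each aged treated library was above each young treated one. Asns had a log2 fold change of 0.83 ± 0.22 in young and 0.72 ± 0.25 in aged mice (edgeR adjusted p = 0.00941 and 0.0351). Without young untreated mouse 2 the young value was 0.51 ± 0.11 (edgeR adjusted p = 0.000872). With all libraries in the fit, the aged Asns call was lost with DESeq2 size factors (edgeR adjusted p = 0.053). It was also lost without the 50 abundant genes in the scaling and with the stricter filter (edgeR adjusted p = 0.0648 and 0.0795). The aged call was lost without young caerulein mouse 3, either aged untreated mouse or any aged caerulein mouse (edgeR adjusted p between 0.0502 and 0.173).

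Aldh18a1 encodes the enzyme that turns glutamate toward proline (ENSMUSG00000025007, chr19:40550257-40588463). Aldh18a1 stood at 78.7, 47.3 and 77.0 CPM in young and at 106 and 102 CPM in aged untreated mice. After caerulein Aldh18a1 stood at 119.5, 146 and 141 CPM in young and at 168, 165 and 155 CPM in aged mice. Treated libraries were above untreated ones at each age, and the lowest young treated value was only a little above the aged untreated values. Aldh18a1 had a log2 fold change of 1.00 ± 0.18 in young and 0.64 ± 0.20 in aged mice (edgeR adjusted p = 0.000748 and 0.0208). With the stricter filter its aged value did not pass (0.42, edgeR adjusted p = 0.0564). The aged call was lost without aged untreated mouse 2 or 3 or aged caerulein mouse 1 (edgeR adjusted p = 0.0951, 0.122 and 0.0529). Pycr1 encodes the last enzyme of proline synthesis in mitochondria (ENSMUSG00000025140, chr11:120635712-120643769). Pycr1 stood at 64.5, 34 and 69.6 CPM in young and at 90.3 and 85.8 CPM in aged untreated mice. After caerulein Pycr1 stood at 74.9, 102 and 96.8 CPM in young and at 97.1, 91.8 and 88.8 CPM in aged mice. In aged mice the treated and untreated libraries overlapped, and in young mice they did not. Pycr1 had a log2 fold change of 0.71 ± 0.23 in young (edgeR adjusted p = 0.0226) and 0.07 ± 0.25 in aged mice (adjusted p = 0.839), and the difference of -0.63 ± 0.34 did not pass (adjusted p = 0.464). The young call was lost without young caerulein mouse 2 or 3 (edgeR adjusted p = 0.0767 and 0.0662), and without young untreated mouse 2 the young value was 0.39 ± 0.12 (adjusted p = 0.0137). With the stricter filter and with only the groups compared the young call was also lost (edgeR adjusted p = 0.0523 and 0.0721). With library totals Pycr1 was called higher in aged mice as well (0.68, edgeR adjusted p = 0.00743).

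Of the 7 amino acid carriers, 6 were higher at both ages and Slc6a9 did not pass. Slc7a1 encodes CAT1, a carrier of arginine and lysine (ENSMUSG00000041313, chr5:148327410-148399904). Slc7a1 stood at 48.6, 34.9 and 54.3 CPM in young and at 59.1 and 57.7 CPM in aged untreated mice. After caerulein Slc7a1 stood at 109, 126 and 112 CPM in young and at 240.2, 264 and 309.6 CPM in aged mice. The untreated groups lay close together, while the aged treated libraries were all far above the young treated ones. Slc7a1 had a log2 fold change of 1.33 ± 0.17 in young and 2.22 ± 0.20 in aged mice (edgeR adjusted p = 5.8e-05 and 5.83e-06). Slc38a2 encodes SNAT2, a sodium-coupled carrier of small neutral amino acids (ENSMUSG00000022462, chr15:96687392-96699730). Slc38a2 stood at 77.4, 69.1 and 93.6 CPM in young and at 85.8 and 106 CPM in aged untreated mice. After caerulein Slc38a2 stood at 161, 182 and 157 CPM in young and at 269.9, 246 and 262 CPM in aged mice. Here too the aged treated libraries were the highest. Slc38a2 had a log2 fold change of 1.06 ± 0.14 and 1.44 ± 0.16 (edgeR adjusted p = 9.64e-05 and 3.36e-05).

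Slc3a2 encodes the heavy chain 4F2hc, which pairs with light chains such as LAT1 (ENSMUSG00000010095, chr19:8706882-8723369). Slc3a2 stood at 145, 101 and 170.2 CPM in young and at 141 and 156 CPM in aged untreated mice. After caerulein Slc3a2 stood at 411, 504 and 442 CPM in young and at 499, 450.2 and 484 CPM in aged mice. The 2 ages overlapped after caerulein and every treated library was above every untreated one. Slc3a2 had a log2 fold change of 1.71 ± 0.18 in young and 1.69 ± 0.21 in aged mice (edgeR adjusted p = 1.8e-05 and 6.58e-05). Slc7a5, which encodes its partner LAT1, was higher by 1.51 ± 0.27 and 1.47 ± 0.31. The FPKM ratio of Slc3a2 to Slc7a5 stood between 1.22 and 1.41 in the means of the 4 groups. Slc1a5 (a glutamine carrier) was higher by 1.38 ± 0.13 and 1.83 ± 0.16, and Slc1a4 (a carrier of alanine and serine) by 1.12 ± 0.24 and 0.73 ± 0.27. With all libraries, the aged Slc1a4 call was lost with DESeq2 size factors (edgeR adjusted p = 0.0621). It was also lost without the 50 abundant genes in the scaling and with the stricter filter (edgeR adjusted p = 0.0757 and 0.104). The Slc1a4 call in aged mice was lost without any of 7 libraries (each young caerulein mouse, each aged untreated mouse, aged caerulein mouse 1 or 3; edgeR adjusted p between 0.0542 and 0.189).

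Slc6a9 encodes GlyT1, a glycine carrier, and was the only carrier of the 7 with lower fitted values after caerulein. Slc6a9 stood at 94.9, 47.5 and 101 CPM in young and at 70.7 and 79.6 CPM in aged untreated mice. After caerulein Slc6a9 stood at 62.1, 73.7 and 58.2 CPM in young and at 57.1, 49.7 and 54.5 CPM in aged mice. In aged mice every treated library was below both untreated ones, and in young mice only young untreated mouse 2 was below the treated libraries. For Slc6a9 the log2 fold change of -0.33 ± 0.23 in young and -0.48 ± 0.26 in aged mice did not pass (edgeR adjusted p = 0.258 and 0.148). Without young untreated mouse 2 it was called lower at both ages (-0.65 ± 0.11, edgeR adjusted p = 0.000209, and -0.55 ± 0.11, adjusted p = 0.000878). Without young untreated mouse 1 or 3 the young value was -0.21 and -0.14 (edgeR adjusted p = 0.522 and 0.637). With library totals in place of TMM its sign turned (0.26 and 0.14, not called).

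Levels of different genes were compared per gene length, as the authors' FPKM. Nupr1 had the highest level of the 34 in each of the 4 groups, at 538 ± 239 FPKM in young and 401 ± 22.9 in aged mice without treatment, and at 2220.1 ± 136 in young and 2235 ± 233 in aged mice after it (SD over 3, 2, 3 and 3 libraries). In untreated mice it was followed by Asns (72.1 ± 25.4 young, 101 ± 5.31 aged), Phgdh (59.8 ± 16.6, 84.6 ± 4.99) and Atf4 (47.5 ± 18.2, 51.2 ± 1.79). In young untreated mice these last 3 did not differ beyond their SD. Chac1 moved from the 7th place in young and the 8th in aged untreated mice (27.7 ± 14.6 and 31.1 ± 1.55 FPKM) to the 2nd in both treated groups (477 ± 49.9 and 896 ± 193). Atf4 was 3rd after caerulein, at 180.0 ± 13.7 and 209.9 ± 8.36. Asns, Slc3a2 and Atf5 came next in the treated groups. In young treated mice their FPKM were 124 ± 13.0, 125 ± 13.0 and 132 ± 23.1, and their order changed between libraries. Eif2ak4 and Gdf15 had the lowest levels in untreated mice. The spread between mice differed by group: the median coefficient of variation of the 34 genes (CPM) was 27.7% in young untreated mice, 6.67% with mouse 2 left out, 4.37% in aged untreated, 10.2% in young treated and 7.58% in aged treated mice.

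**Figure D3:**
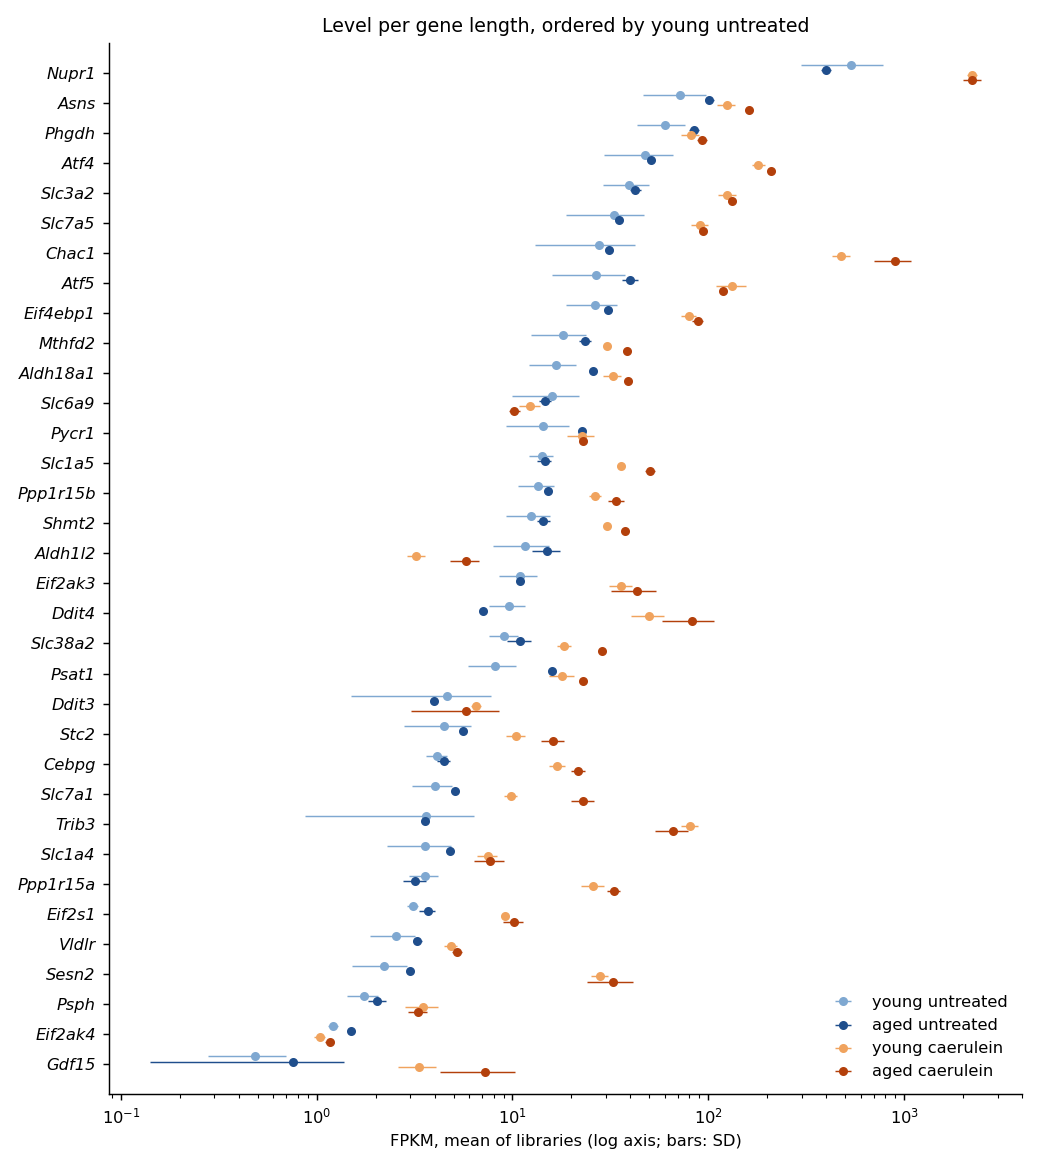
Mean FPKM (horizontal log axis) of each of the 34 genes in the 4 groups, with genes ordered by young untreated mice and bars for the SD over 3 libraries (2 in aged untreated). Nupr1 is at the top throughout, and Chac1 in treated mice is second to it.

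The other genes of the pathway were counted in 6 further lists at both ages. Of all genes tested 27.5% were called higher and 24.7% lower in young mice, and 27% and 21.2% in aged mice. Of 20 cytosolic aminoacyl-tRNA synthetases, which charge tRNA with amino acids, 15 were higher and 1 lower in young and 16 higher and 0 lower in aged mice. Examples by the smallest p were Vars (1.22 ± 0.10 in young and 1.00 ± 0.11 in aged), Gars (2.16 ± 0.18 in young and 1.91 ± 0.21 in aged) and Nars (1.95 ± 0.17 in young and 1.77 ± 0.20 in aged). Of 18 other ATF4 and stress outputs, 12 were higher and 3 lower in young and 12 higher and 2 lower in aged mice. The stress factor Atf3 (7.67 ± 0.20 in young and 7.94 ± 0.24 in aged) and the growth arrest gene Gadd45a (5.78 ± 0.39 in young and 6.64 ± 0.51 in aged) changed most among those named. Txnip, a thioredoxin inhibitor, was higher by 3.64 ± 0.20 and 4.37 ± 0.25. The 14 genes of eIF2 and eIF2B subunits, other eIF2 kinases and cofactors were split, with 6 higher and 4 lower in young and 5 higher and 3 lower in aged mice. With library totals they were 8 higher and 4 lower in young and 9 higher and 1 lower in aged mice. That scaling moved all genes upward, by a median of 0.50 in young and 0.61 in aged mice (log2). The same shift lies in each count with library totals in the lists below. The eIF2B subunit Eif2b3 (2.47 ± 0.16 in young and 2.52 ± 0.19 in aged) and the GCN2 activator Gcn1l1 (1.59 ± 0.12 in young and 1.88 ± 0.15 in aged) were higher, and the heme-regulated kinase Eif2ak1 (-1.38 ± 0.12 in young and -0.98 ± 0.13 in aged) was lower.

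Of 20 other amino acid carriers, 6 were higher and 6 lower in young and 6 higher and 5 lower in aged mice, near the shares over all genes (27.5% higher and 24.7% lower in young, 27% and 21.2% in aged mice). With library totals 8 were higher and 4 lower in young and 9 higher and 5 lower in aged mice. The cystine carrier Slc7a11 (2.56 ± 0.15 in young and 2.44 ± 0.18 in aged) and the cationic carrier Slc7a3 (2.58 ± 0.29 in young and 2.66 ± 0.34 in aged) were higher, while Slc7a8 (-2.20 ± 0.15 in young and -2.77 ± 0.16 in aged), which encodes LAT2, was lower. Of 24 other one-carbon, glycine, glutamine and proline enzymes, 6 were higher and 12 lower in young and 5 higher and 11 lower in aged mice. The aspartate aminotransferase Got1 (2.48 ± 0.21 in young and 2.57 ± 0.25 in aged) was higher. Gatm, the first enzyme of creatine synthesis, was lower, with -2.43 ± 0.22 and -2.23 ± 0.23. With library totals in place of TMM the enzyme list had 8 higher and 7 lower in young and 9 higher and 7 lower in aged mice. Of 14 genes of the other unfolded protein response arms, 3 were higher and 9 lower in young and 4 higher and 5 lower in aged mice. Its chaperone Hspa5 (1.65 ± 0.19 in young and 2.48 ± 0.23 in aged) and the sensor kinase Ern1 (2.22 ± 0.18 in young and 2.01 ± 0.21 in aged) were higher and the disulfide isomerase Pdia4 (-2.09 ± 0.17 in young and -0.79 ± 0.18 in aged) was lower. With library totals that list had 5 higher and 7 lower in young and 8 higher and 1 lower in aged mice.

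**Figure D4:**
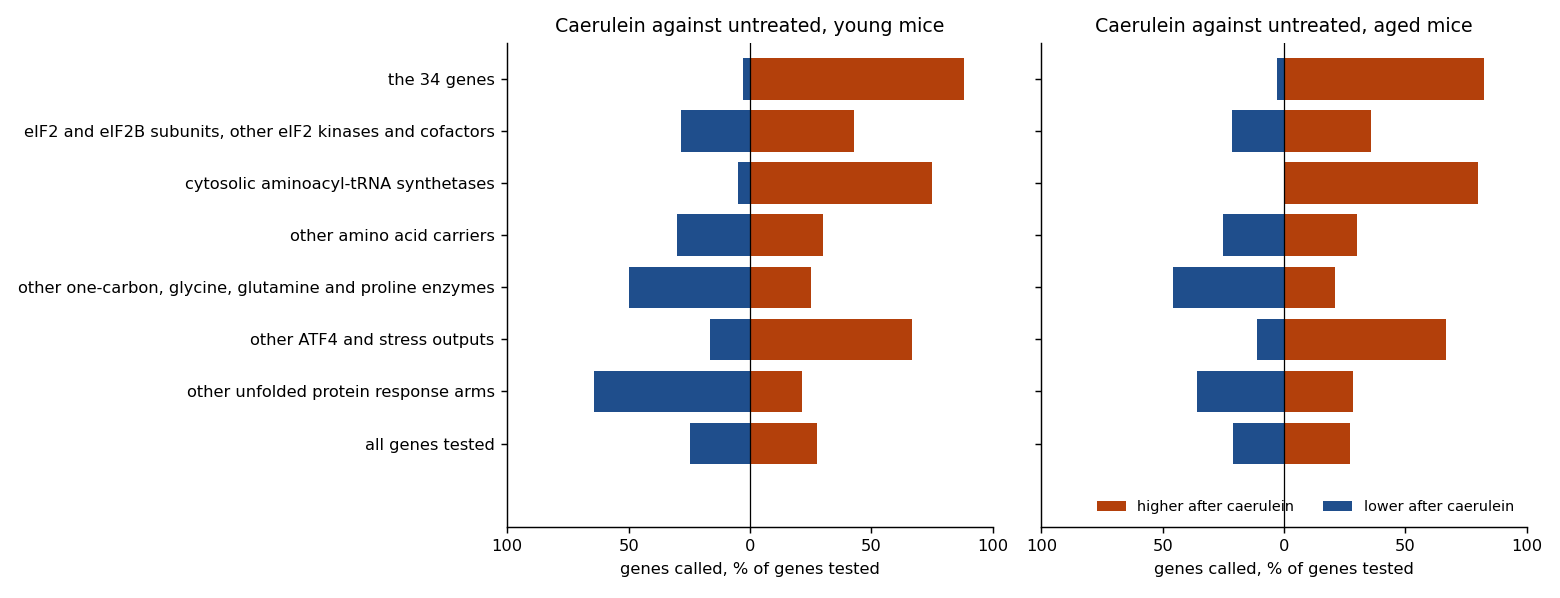
Share of tested genes called higher (right, red) or lower (left, blue) after caerulein, in percent of the genes tested in each list, for the 34 genes, 6 related lists and all 14113 genes tested, in young (left panel) and aged mice (right panel). The 34 genes, the tRNA synthetases and the other ATF4 outputs lie mostly to the right, and all genes are near balance at 27.5% and 24.7% in young mice.

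In untreated mice the aged pancreas was compared with the young one, and 0 of the 34 genes were called by edgeR's quasi-likelihood test in either direction. Of all genes tested 0.0567% were called higher and 0.0354% lower, and 5 of the 34 had an unadjusted p below 0.05. Groups did not overlap in 14 of the 34, against 23.2% of all genes. The gene nearest to a call was Psat1, the aminotransferase of serine synthesis (ENSMUSG00000024640, chr19:15904678-15947337). Psat1 stood at 43.1, 24.9 and 35.7 CPM in young and at 66.8 and 67.4 CPM in aged untreated mice. After caerulein Psat1 stood at 70.1, 91.2 and 73.2 CPM in young and at 96.8, 102 and 99.8 CPM in aged mice. Both aged untreated libraries were above all 3 young ones. Its difference was 0.96 ± 0.20 (edgeR adjusted p = 0.188). It was called by DESeq2 (adjusted p = 0.00256), when every gene with a count was tested (adjusted p = 0.00121) and in edgeR without young untreated mouse 2 (0.76 ± 0.13, adjusted p = 0.0275), where 0.258% of all genes were called higher and 0.147% lower. Pycr1 (0.65 ± 0.25, edgeR adjusted p = 0.531), Aldh18a1 (0.62 ± 0.20, adjusted p = 0.531) and Phgdh (0.50 ± 0.20, adjusted p = 0.531) did not pass, and without young untreated mouse 2 they were at 0.38 ± 0.13, 0.41 ± 0.11 and 0.28 ± 0.12 (adjusted p = 0.44, 0.253 and 0.571).

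After caerulein the aged pancreas was compared with the young one, the comparison nearest to the study's stated interest in aging at the start of pancreatitis. Both called genes were carriers, and both were higher in aged mice: Slc7a1 by 1.23 ± 0.17 (edgeR adjusted p = 0.00308, 2.34-fold) and Slc38a2 by 0.64 ± 0.14 (adjusted p = 0.0308, 1.56-fold). So 2 of the 34 genes were higher and 0 lower, where 2.46% of all genes were called higher and 1.27% lower. Unadjusted p was below 0.05 in 11 of the 34, and the libraries did not overlap in 17, against 30.9% of all genes. Gdf15 (1.13 ± 0.41), Chac1 (0.91 ± 0.35), Aldh1l2 (0.84 ± 0.23) and Ddit4 (0.73 ± 0.23) did not pass with all libraries in the fit (edgeR adjusted p between 0.0726 and 0.198).

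The number called between ages after caerulein moved with single libraries, although no untreated library is part of the contrast itself. Young untreated mouse 2 enters only the filter, the scaling and the estimate of spread, and without it 12 of the 34 were called higher and 0 lower, where 7.85% and 6.31% of all genes were. The added genes were Ppp1r15b, Cebpg, Chac1, Ddit4, Gdf15, Stc2, Mthfd2, Aldh1l2, Asns and Slc1a5. Their fold changes hardly moved, as for Chac1 (0.88 ± 0.14, edgeR adjusted p = 0.00105) and Aldh1l2 (0.82 ± 0.13, adjusted p = 0.00129), while their SE were smaller. A fit of the 2 treated groups alone called 10, with 7.81% of all genes called higher. Slc38a2 lost its call without any of the 3 young caerulein, 2 aged untreated or 3 aged caerulein libraries (edgeR adjusted p between 0.0511 and 0.14), and Slc7a1 kept its call in each case. Summed B cell markers were at most 0.338 CPM in young treated and 4.22 to 5.32 in aged treated libraries, acinar markers 306718 to 324139 and 292286 to 311122. The single acinar markers were split. Of the 6, 2 (Cpa1 and Cel) were higher in every aged treated than in any young treated library, and 2 (Ctrb1 and Pnlip) were lower. Their part in the differences was not tested.

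**Figure D5:**
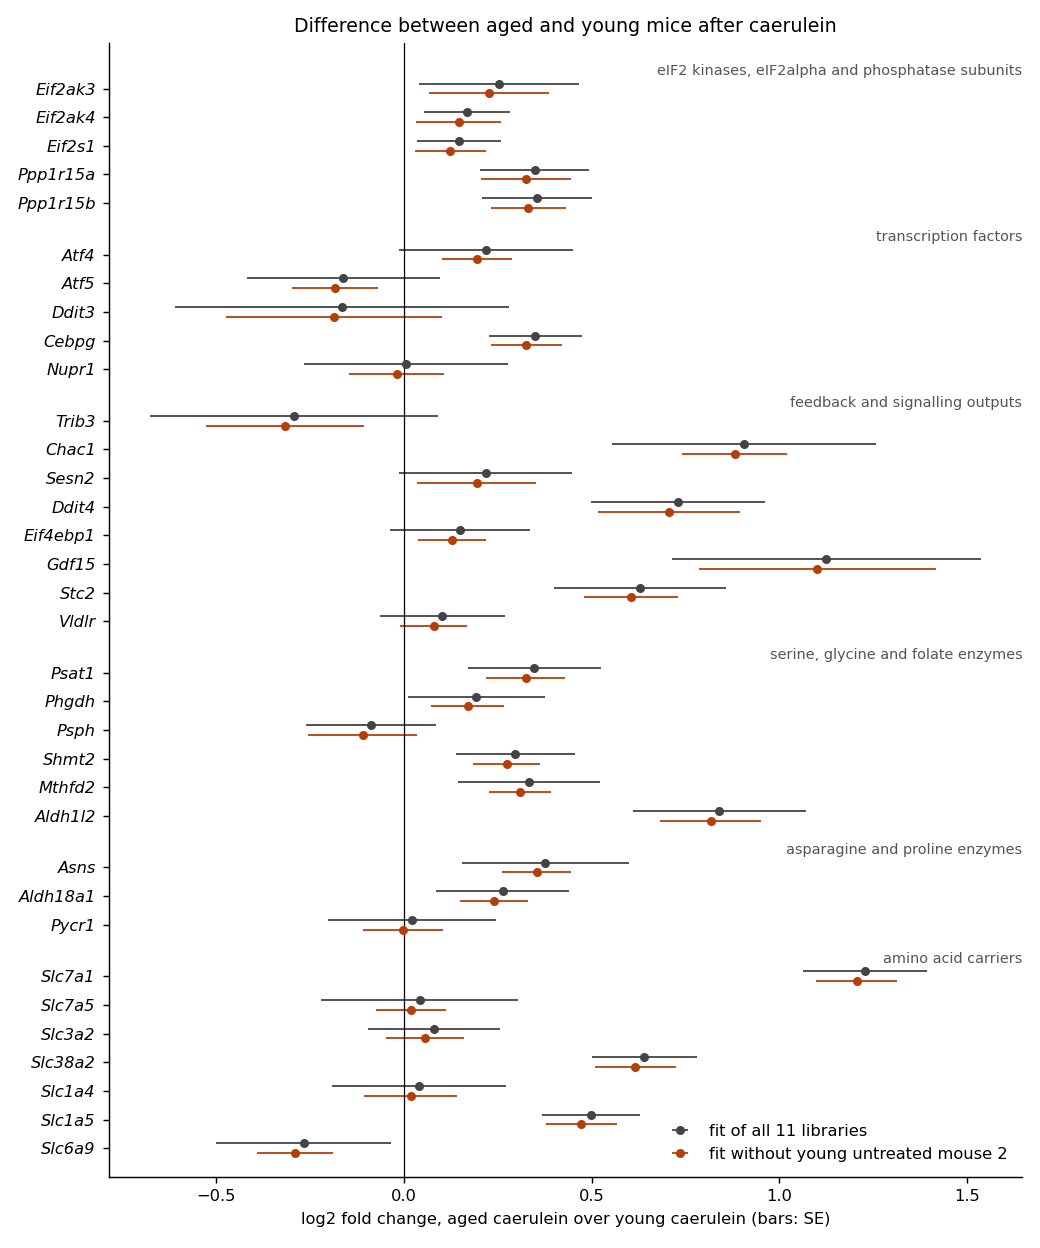
Log2 fold change of aged over young treated mice (horizontal axis) for the 34 genes, grouped by role, from the fit of all 11 libraries (grey) and from the fit without young untreated mouse 2 (red), with bars for the SE. Points of the 2 fits lie close together and the bars are shorter in the second fit, and Slc7a1 lies farthest to the right.

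The caerulein response itself was compared between ages as the difference of the log2 fold changes, aged minus young. With all libraries 0 of the 34 genes were called by edgeR, 0.00709% of all genes were called higher and 0.00709% lower, and 5 of the 34 had an unadjusted p below 0.05. The median difference was -0.03 over the 34 genes and 0.06 over all genes. Ddit4 had the largest difference at 1.18 ± 0.36 (edgeR adjusted p = 0.232), followed by Slc7a1 at 0.88 ± 0.25 (adjusted p = 0.198) and, on the other side, Atf5 at -0.75 ± 0.39 (adjusted p = 0.452). DESeq2 called Ddit4 and Slc7a1 (adjusted p = 0.0451 and 0.0349). Without young untreated mouse 2 edgeR called Chac1 (1.11 ± 0.22, adjusted p = 0.0243) and Slc7a1 (1.04 ± 0.17, adjusted p = 0.00978), where 1.48% of all genes were called higher and 0.811% lower. Of the other unfolded protein response arms, 5 of 14 genes were higher and 0 lower in aged than young treated mice. The 5 were Hsp90b1, Hyou1, Creld2, Sdf2l1 and Pdia4, named after their values were seen. In that comparison 2.46% of all genes were called higher and 1.27% lower. Scaling by library totals changed the list to 4 higher and 1 lower. Leaving out young untreated mouse 2 changed it to 8 higher and 1 lower, where 7.85% and 6.31% of all genes were called. In the list 0 of 14 were called in the difference of responses with all libraries and 7 higher and 1 lower without that mouse.

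The authors' deposited tables of their own comparisons list all 34 genes. By the adjusted p in the authors' deposited tables, 29 were higher and 1 lower after caerulein in young mice and 28 higher and 2 lower in aged mice. Of all rows in the authors' deposited tables, those called higher were 14.2% and lower 12.3% in young and 17.7% and 13.8% in aged mice. In the authors' deposited table for untreated mice 0 of the 34 were called, where 0.0995% of all rows were higher and 0.118% lower. In the authors' deposited table for treated mice 14 of the 34 were higher in aged and 0 lower, where 4.36% of all rows were higher and 2.86% lower. The sign of the authors' deposited log2 fold change was the same as here in 34, 34, 34 and 32 of the 34 genes, in that order of comparisons.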

How the data were processed

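RNA of whole pancreas from 11 mice was sequenced after poly(A) capture as paired reads of 150 bases, per the labels' protocols. Per the submitters' processing notes, the authors aligned with HISAT2 2.0.5 to mm10 and made the gene counts with featureCounts 1.5.0-p3. Neither the strand setting nor the annotation release is given in the sources used here, so reads of overlapping or antisense genes cannot be told apart. The FPKM values were deposited by the authors beside the counts and were used only to compare genes with each other. The authors' deposited comparison tables hold log2 fold changes and p-values, and the tool behind them is not given in the sources used here. Every library column was mapped to its mouse by its label.

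Counts were filtered with filterByExpr, scaled by TMM and fitted with edgeR 4.0.16 (R 4.3.3) in 1 quasi-likelihood model with 4 groups, without a term for mouse number. Tested were caerulein in young, caerulein in aged, age in untreated, age in treated mice and the difference of responses. The p-values were adjusted by Benjamini and Hochberg over all 14113 genes tested and called at 0.05. The script was tested on simulated data. CPM in the text are TMM-scaled, and those of marker sums use library totals. Intervals are 95%. The 34 genes, the related lists and the naming rule were chosen with earlier results of these data known. The rule gave values in every library for Atf4, Ddit3, Ppp1r15a, Trib3, Chac1 and Asns, for the 2 genes with the largest mean change in each role group, and for genes called lower, called at only 1 age or called between ages. Of each related list at most the 3 genes with the smallest p were named, besides Atf3, Slc7a11 and Hspa5. Eif2ak4, Slc6a9 and Psat1 were added to it, and the 5 chaperone genes called between ages were named, after their values were seen. Alternatives were a stricter filter (10 counts, 5 CPM), no filter, DESeq2 (1.42.0) and its size factors, library totals, scaling without the 50 most abundant genes, a minimum of 1.5-fold, a block for mouse number, only the groups compared, and leaving out each library. Leaving out young untreated mouse 2 together with DESeq2 or library totals was added after seeing the data. Promoter windows came from RefSeq (GRCm38.p6). The age groups differ in the number of untreated mice (3 and 2), which limits precision in aged mice.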

Additional observations from a re-analysis of the deposited data

Results flagged for a closer look

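The caerulein response of 2 genes differed between ages by the test of the difference itself when young untreated mouse 2, the library with B cell, T cell and adipocyte markers, was left out. Chac1 had a difference of 1.11 ± 0.22 (aged minus young log2 fold change, SE, edgeR adjusted p = 0.0243), and with all libraries it was 0.74 ± 0.53 (adjusted p = 0.581). Slc7a1 had a difference of 1.04 ± 0.17 (adjusted p = 0.00978), and with all libraries it was 0.88 ± 0.25 (adjusted p = 0.198). The Chac1 value moved with that mouse, which held 18.1 CPM of Chac1 against 56.7 and 60.5 CPM in the other young untreated mice. Groups of 2 or 3 libraries are too small for a check of single outlying mice.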

How the results depend on the processing

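Of 748 values each (34 genes, 22 alternatives), 716 kept direction and side of the threshold for caerulein in young and 681 in aged mice. For age in untreated, age in treated mice and the difference of responses only 5, 13 and 6 genes were followed. These had an unadjusted edgeR p below 0.05 in that comparison or were called in it without young untreated mouse 2. Of their 110, 286 and 126 values, 106, 234 and 119 kept direction and side of the threshold. The genes were chosen by their own result, so these counts do not describe the other members. The sign turned in 4 and 8 values after caerulein (young, aged), all in genes that were not called with all libraries and TMM.
With library totals Eif2ak4 was at 0.32 (young) and 0.29 (aged) and Slc6a9 at 0.26 and 0.14. With that scaling and young untreated mouse 2 left out they were at 0.50 and 0.29 (Eif2ak4) and at 0.13 and 0.14 (Slc6a9). In aged mice Phgdh was at -0.036 and Pycr1 at -0.15 with the stricter filter, and Pycr1 was at -0.0012 without the 50 abundant genes in the scaling and at -0.018 with only the groups compared. With library totals both were called higher in aged mice, at 0.80 and 0.68 (edgeR adjusted p = 0.00195 and 0.00743). Called lower in young mice were 2 genes with the stricter filter (32.8% of all genes) and 2 with DESeq2 without young untreated mouse 2 (24.8%). In aged mice 3 were called lower with the stricter filter (29.7%) and with only the groups compared (29.2%). There 2 were called lower with DESeq2 size factors (22.6%), without the 50 abundant genes in the scaling (22.9%) and with DESeq2 without that mouse (25.7%).

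Between ages in untreated mice 1 gene, Psat1, was called higher with no filter, with DESeq2 and with DESeq2 without young untreated mouse 2, and under the last 1, Nupr1, was called lower. Of all genes 0.266%, 0.255% and 0.412% were called higher in these, and 0.296% lower in the last. In treated mice the number higher in aged was 7 with no filter (1.88% of all genes), 5 with DESeq2 (4.39%), 10 with only the groups compared (7.81%), and 1 with library totals (0.701%) or a minimum of 1.5-fold (0.376%), against 2.46% of all genes in the fit reported. It was 14 with DESeq2 (8.05%) and 6 with library totals (4.13%) when young untreated mouse 2 was left out. In the difference of responses 1 was called higher with no filter (Ddit4, 2.02% of all genes), 2 with DESeq2 (1.5%) and 4 with DESeq2 without that mouse (Aldh1l2, Chac1, Nupr1 and Slc7a1, 3.19%). The cause was not tested.

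Leaving out 1 library at a time gave 28 to 31 higher and 1 to 2 lower after caerulein in young mice, and 21 to 28 higher and 1 to 3 lower in aged mice. The 21 came without aged untreated mouse 2, which leaves 1 mouse in that group, assumed to vary like the others. Age in untreated mice gave 0 to 1 higher and 0 lower, age in treated mice 1 to 12 higher (0.776% to 7.85% of all genes) and 0 lower, and the difference of responses 0 to 2 higher and 0 lower.

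Mouse numbers name different animals, so they were not used to pair the samples. Deviations of libraries with the same number correlated at -0.211 to 0.159, and those with other numbers at -0.231 to 0.312. Deviations from the mean of 2 or 3 libraries are tied to each other, so these correlations cannot decide whether samples were paired. With the mouse number as a replicate block 1 gene was higher between ages in treated mice (1.66% of all genes; Slc38a2, not called, at 0.63, edgeR adjusted p = 0.0587), and the calls of Phgdh in young (0.50, adjusted p = 0.0593), Psat1 (0.54, adjusted p = 0.0792) and Asns (0.68, adjusted p = 0.0703) in aged mice were lost.

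Read depth limits Gdf15 most, with 7 to 41 counts in untreated libraries, and 2 aged untreated mice limit each comparison with that group.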
